A study of Mus musculus with 2 samples.

Results

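The 6 actin genes of the mouse, Actb, Actg1, Acta2, Actg2, Acta1 and Actc1, were followed in the stomach of embryos at day 14.5 of gestation. They were found by symbol and Ensembl identifier among 43346 Ensembl genes, and all 6 were present in both tables. The tissue came from strain B6NCrl, with no treatment and no genetic change named, and each library was made from 10 ng of total RNA of 1 stomach. Both libraries belong to 1 group, as biological replicates 1 and 2, so nothing could be compared between conditions. The stomachs were taken on different days, and embryo, day and library preparation cannot be told apart. Reads assigned to genes came to 23668322 in replicate 1 and 23882647 in replicate 2. The labels describe a stomach of 1 pup and, elsewhere, a mixture of sexes. None of the marker lists used here defines the stomach against other gut, so the organ itself was not checked beyond its smooth muscle and epithelium.

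The libraries also differ in what they hold. Replicate 1 had messages of digestive enzymes of the exocrine pancreas that were lower in replicate 2. The sum over 8 such genes was 797 TPM and 44.4 TPM, respectively. Pnliprp1, a lipase-related protein, had 4774 and 1 counts, and Cpa1, a carboxypeptidase, had 2203 and 30.0. Clps fell less, from 1554 to 319 counts, and its 39.5 TPM in replicate 2 made up most of the sum there. The sex-linked genes went against the label of a mixture of sexes in each library. The Y-linked genes Ddx3y, Eif2s3y, Uty and Kdm5d together had 6559 counts in replicate 1 and 2 in replicate 2, while Xist, which silences an X chromosome in female cells, had 13.5 and 32038. Each difference between the replicates given for the actins stands beside these differences in tissue content and sex, whose part in it was not tested.

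Actin is the protein of the thin filament, and it cycles between a free monomer and a polymer that gives cells their shape, moves them and, with myosin, contracts them. Mammals carry a separate gene for each of 6 near-identical proteins. Actb (beta-actin) and Actg1 (gamma-actin) make the cytoplasmic forms that every cell uses. Acta2 makes the alpha form of smooth muscle, the usual marker of vascular smooth muscle and myofibroblasts, and Actg2 makes the gamma form that marks the visceral smooth muscle of the gut. Acta1 makes the skeletal muscle form and Actc1 the heart form, and both striated forms also appear in other developing muscle. In a whole organ, fewer cells of a type and less RNA per cell cannot be told apart.

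All 6 genes lie on different chromosomes of the mm10 assembly and on the minus strand in GENCODE M21. Actb (ENSMUSG00000029580.10) spans chromosome 5, 142903115 to 142906754, and Actg1 (ENSMUSG00000062825.11) spans chromosome 11, 120345690 to 120348542. Acta2 (ENSMUSG00000035783.8) spans chromosome 19, 34241090 to 34255590, and Actg2 (ENSMUSG00000059430.10) spans chromosome 6, 83512905 to 83536265. Acta1 (ENSMUSG00000031972.4) spans chromosome 8, 123891769 to 123894751, and Actc1 (ENSMUSG00000068614.7) spans chromosome 2, 114047282 to 114053548. The loci differ in size, from 2853 bases for Actg1 to 23361 for Actg2, while the coding part is of nearly constant length, 1128 bases in Actb and Actg1, 1131 in Actg2 and 1134 in the other 3, stop codon included.

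The first 54 coding bases are shown for each gene, because the proteins differ most visibly at their start and because reads can be given to the right gene only where the sequences differ. They were read from the leading transcript of each gene in GENCODE M21, with the start codon first. Capitals mark bases that differ from Actb, or that have no partner in it, after alignment by codon. The alignment set the unpaired codons at different places in Acta1 and Actc1, so their capitals depend partly on that placement.
Actb: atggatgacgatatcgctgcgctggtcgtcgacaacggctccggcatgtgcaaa
Actg1: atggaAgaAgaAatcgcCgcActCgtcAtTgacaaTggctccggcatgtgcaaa
Acta2: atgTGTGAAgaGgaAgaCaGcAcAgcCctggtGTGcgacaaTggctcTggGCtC
Actg2: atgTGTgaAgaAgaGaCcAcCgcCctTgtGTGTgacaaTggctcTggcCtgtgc
Acta1: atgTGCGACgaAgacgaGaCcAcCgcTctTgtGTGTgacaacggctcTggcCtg
Actc1: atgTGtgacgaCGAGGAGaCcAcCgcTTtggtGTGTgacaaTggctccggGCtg
Actg1 has 9 capitals in this stretch, and the 4 muscle genes have 18 to 21.

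Over the whole coding sequence the residues separated the cytoplasmic from the muscle genes, but not clearly the smooth from the striated muscle genes. Actb and Actg1 differed in only 4 codons that change the residue, out of 375 aligned codons, but in 121 synonymous ones. Acta2 and Actg2 differed in 2 residue-changing and 165 synonymous codons, with 1 codon unpaired. Acta1 and Actc1 differed in 4 residue-changing and 146 synonymous codons. Between a smooth and a striated muscle gene, 4 to 8 codons changed the residue, with Actg2 and Actc1 at 4, as many as between Acta1 and Actc1. Between a cytoplasmic and a muscle gene, 21 to 24 did. Base identity over the aligned codons ran only from 81.96% (Actg1 with Acta2) to 88.62% (Actb with Actg1), so near-identical proteins are encoded by messages that sequencing can separate.

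That separability was measured for exact matches only, so reads aligned with mismatches are not covered. The tables treat a read as about 100 bases, since each effective length is the length less 99, so windows of 100 bases were compared across all GENCODE M21 transcripts. No window of the leading transcript of any actin gene occurred in another of the 6. For Acta2, Actg2, Acta1 and Actc1 no window occurred in any other gene. Actb shared 20 of 1821 windows (1.1%), with the transcribed pseudogene Gm15725 and with transcripts listed under Lrrc58. Actg1 shared 946 of 1853 windows (51.1%), all in its coding part, with 6 processed pseudogenes, which are reverse-transcribed copies of the message. Of these Gm12715 held 823 shared windows and was assigned 301.66 counts in replicate 1 and 289.14 in replicate 2, against 67120.32 and 71334.15 for Actg1 itself. For Gm6375, Gm8543 and Gm16385, also among the 6, the data give no counts, so where reads from them would be assigned is not known.

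The deposited uncertainty of the counts follows the same split. The posterior standard deviation of the count, which the quantification gives for reads that fit several places, was 28.2 and 27.91 reads for Actg1 and 6.69 and 6.72 for Actb in replicates 1 and 2. It was 0.0 in both libraries for Acta2, Actg2, Acta1 and Actc1. No uncertainty of assignment was thus recorded for the muscle actins, and that of Actg1 was small beside its count.

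Actb had 183441.24 expected counts in replicate 1 and 194811.45 in replicate 2, and its level was 5993.1 and 5993.9 TPM (mean 5993.5 ± 0.566, SD, n = 2). TPM divides each count by transcript length and scales the result to a fixed total, so it is the scale on which genes are compared here. Actb took rank 6 in replicate 1 and rank 7 in replicate 2 by TPM among all genes. The tables also give a posterior mean TPM with an interval whose level is not stated, and for Actb it was 5795.88 (5768.13 to 5823.48) and 5808.08 (5781.19 to 5834.78). These lie below the TPM itself, and their intervals are far wider than the SD of 0.566, which at n = 2 is no measure of precision.

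Actg1, the other cytoplasmic form, stood at 2222.87 and 2232.18 TPM (mean 2228 ± 6.58, SD, n = 2) and ranked 28 in both libraries. Actb was 2.696-fold higher than Actg1 in replicate 1 and 2.685-fold higher in replicate 2. The cytoplasmic pair summed to 8216 and 8226 TPM.

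Acta2 followed closely, with 54707 and 56274 counts and 1929.49 and 1869.54 TPM (mean 1900 ± 42.4, SD, n = 2). Actg2 had 22952 and 22166 counts and stood at 1120.96 and 1014.72 TPM (mean 1068 ± 75.1, SD, n = 2). The alpha form thus exceeded the gamma form of smooth muscle 1.72-fold in replicate 1 and 1.84-fold in replicate 2. Without the division by length the ratio of their counts was 2.38 and 2.54, as the effective length is 1682 bases for Acta2 and 1214.66 for Actg2 in replicate 1. Both were among the most abundant messages of the organ, Acta2 at rank 34 and 35 and Actg2 at rank 98 and 112.

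The striated forms were far lower. Actc1 had 887 and 790 counts and stood at 38.3 and 32.13 TPM (mean 35.2 ± 4.36, SD, n = 2). Acta1 had 131 and 72 counts and stood at 5.83 and 3.02 TPM (mean 4.42 ± 1.99, SD, n = 2). Replicate 1 had the higher level of each, and the Acta1 values lie furthest apart of the 6 relative to their mean. Acta1 lies inside Gm20388, a gene of the opposite strand whose exons do not overlap those of Acta1, and which had 528.94 and 783.22 counts. Whether the counting used strand is not given in the labels or tables, and if it did not, unspliced reads of Gm20388 and reads of Acta1 cannot be told apart. All 6 genes were detected, meaning TPM 1 or more in both libraries, where 15137 of all 43346 genes were, with a median of 15.7 TPM.

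**Figure D1:**
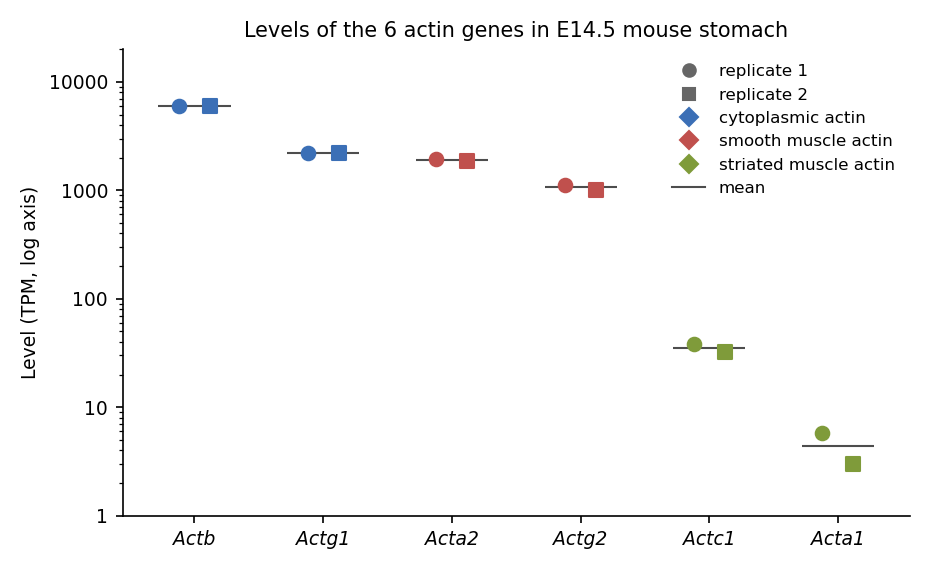
Level of each actin gene in TPM (log axis), with circles for replicate 1, squares for replicate 2, a line at their mean and colours for the cytoplasmic, smooth muscle and striated muscle classes. The 4 abundant genes sit between 1014.72 and 5993.9 TPM, and Actc1 and Acta1 lie below 40 TPM.

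The order Actb, Actg1, Acta2, Actg2, Actc1, Acta1 was the same in both libraries, and no neighbours overlapped. The narrowest step was from Actg1 to Acta2, 1.15-fold and 1.19-fold, where the lower Actg1 value (2222.87 TPM) still exceeded the higher Acta2 value (1929.49 TPM). The widest was from Actg2 to Actc1, 29.3-fold and 31.6-fold. Actc1 exceeded Acta1 6.57-fold in replicate 1 and 10.6-fold in replicate 2. With 2 libraries, these orders have no test.

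Taken as shares of their sum, the actins were mostly cytoplasmic. The sum was 11311 TPM in replicate 1 and 11145 in replicate 2 (mean 11228 ± 117, SD, n = 2), which was 1.131% and 1.115% of all TPM. By counts the 6 genes took 1.391% and 1.446% of the reads on genes. The cytoplasmic pair held 72.64% and 73.806% of the actin TPM (mean 73.2% ± 0.824, SD, n = 2), the smooth muscle pair 26.97% and 25.878% (mean 26.4% ± 0.772), and the striated pair 0.39% and 0.315% (mean 0.353% ± 0.0529). The cytoplasmic sum was 2.69-fold the smooth muscle sum in replicate 1 and 2.85-fold in replicate 2.

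Within these sums Actb held 52.987% and 53.779% of actin TPM in replicates 1 and 2. Actg1 held 19.653% and 20.028%. Acta2 held 17.059% and 16.774%, and Actg2 held 9.911% and 9.104%. Actc1 held 0.339% and 0.288%, and Acta1 held 0.0515% and 0.0271%. Replicate 2 had the higher share of both cytoplasmic genes and the lower share of all 4 muscle genes. The widest changes, replicate 2 minus replicate 1, were 0.792 percentage points for Actb and -0.806 for Actg2. Shares of 1 sum are tied to each other, so these changes are not independent.

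Shares of counts, with no division by length, were higher than those of TPM for Actb and lower for Actg2. Actb held 55.7% (95% exact binomial interval 55.5 to 55.9) of actin counts in replicate 1 and 56.4% (56.2 to 56.6) in replicate 2. Actg2 held 6.97% (6.88 to 7.06) and 6.42% (6.34 to 6.499). Acta1 held 0.0398% (0.0333 to 0.0472) and 0.0208% (0.0163 to 0.0262). These intervals cover counting error only, since reads amplified without molecular identifiers are not independent molecules. For these 3 genes, and also for Acta2 and Actc1, the intervals of the 2 libraries did not overlap, while for Actg1 they did. How often this holds over all genes was not counted, so it does not set the actins apart.

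**Figure D2:**
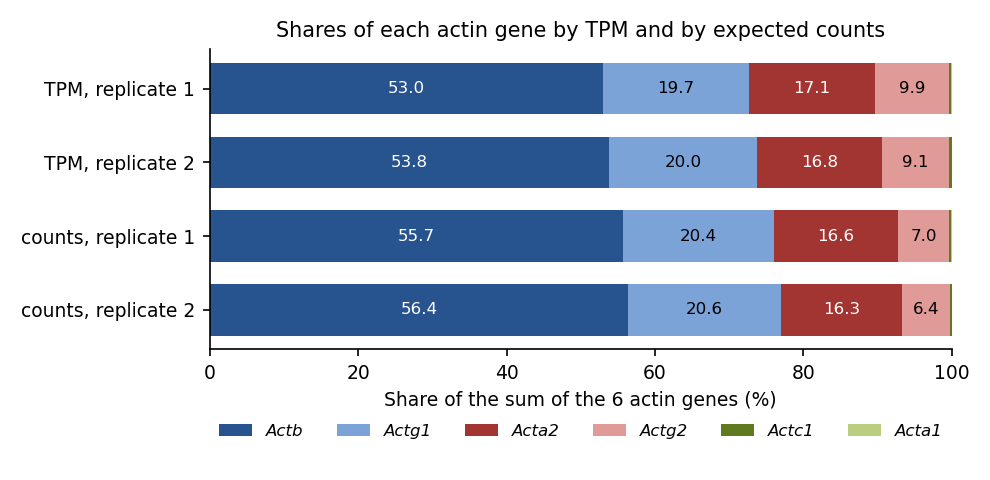
Share of each actin gene in the sum of the 6, in percent, as stacked bars for each library by TPM and by expected counts. Actb takes 52.987% to 56.4% of each bar, and the Actc1 and Acta1 segments together stay below 0.4%.

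The difference between the libraries was small for every actin except Acta1. It was taken as the log2 ratio of replicate 2 over replicate 1 from expected counts, with library sizes scaled by TMM (a trimmed mean that sets the typical gene to no change) and 0.5 added to each count. There is 1 library on each side, so no p-value exists. None of the 6 genes was over 2-fold apart, where 38 of the 12761 genes whose mean count reached 100 were (0.298%). All 8 pancreatic enzyme genes above are among the 38, as are the 4 Y-linked genes and Xist. For 95% of the 12761 genes the log2 ratio lay within 0.38 of 0.

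On this scale, as CPM, Actb stood at 7775 in replicate 1 and 8132 in replicate 2, a log2 ratio of 0.06 (95% counting interval 0.06 to 0.07). Actg1 stood at 2845 and 2978, a ratio of 0.07 (0.05 to 0.08). Acta2 stood at 2319 and 2349, a ratio of 0.02 (0.00 to 0.04). Ratios at least as wide as these were found in 64.2%, 63.7% and 89.0% of the genes tested. The signs depend on the scaling: with the deposited TPM the ratios were 0.00 for Actb, 0.01 for Actg1 and -0.05 for Acta2, and with spike-in counts as library sizes, which moved every ratio by -0.27, they were -0.20, -0.20 and -0.25.

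Actg2 stood at 973 and 925 CPM, a log2 ratio of -0.07 (-0.10 to -0.05), and 60.6% of the genes tested had a ratio at least as wide. Actc1 stood at 37.6 and 33.0, a ratio of -0.19 (-0.33 to -0.05), matched by 22.1% of genes. Acta1 stood at 5.55 and 3.01, a ratio of -0.88 (-1.32 to -0.46), or 0.543-fold, and 0.415% of the genes tested differed as much. Low counts scatter more: among 2835 genes whose mean count lay between 50 and 200, 95 (3.35%) differed as much as Acta1. Gm20388, over Acta1 on the other strand, went the opposite way, at 0.54. Acta1, Actc1 and Actg2 kept their sign with TMM, DESeq2 size factors, deposited TPM and spike-in sizes. Since DESeq2 and spike-in sizes shift every ratio alike, by 0.011 and -0.269, neither could have turned these signs. With spike-in counts as library sizes Acta1 passed 2-fold (-1.15).

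**Figure D3:**
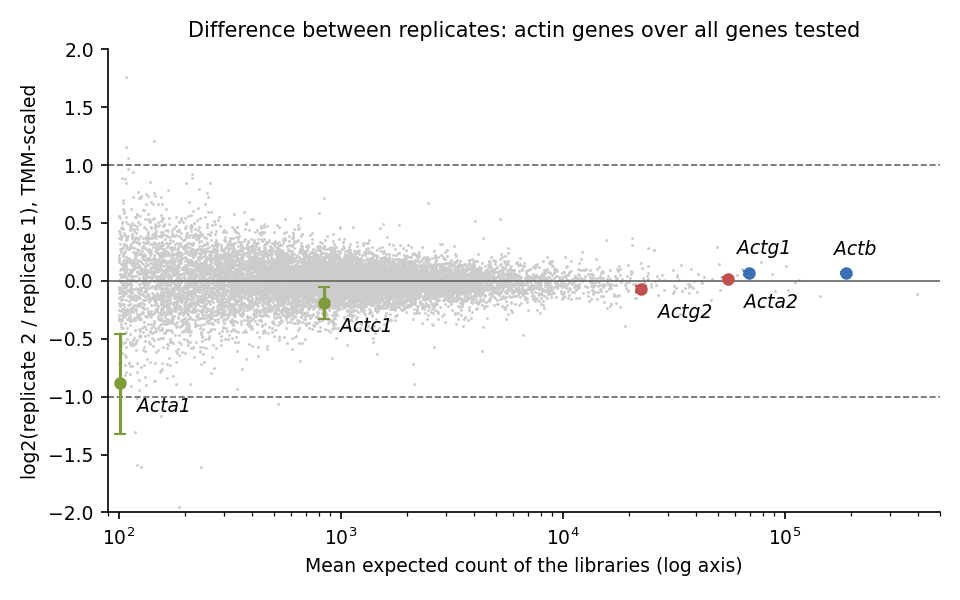
log2 ratio of replicate 2 over replicate 1 (TMM-scaled) against the mean expected count (log axis), with the genes tested in grey and the actins in the colours of their classes. Bars are 95% counting intervals, dashed lines mark 2-fold, and 24 genes lie outside the range drawn. Acta1, at -0.88, is the only actin away from the line at 0 by more than 0.2.

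The deposited transcript shares gave Actb 1 dominant transcript and divided Actg1 and Actg2 mainly between 2 annotated transcripts each. The share is the percent of a gene's TPM that the deposited tables give to a transcript of GENCODE M4. Acta2 and Acta1 have 1 transcript each in these tables, so their shares carry no information. Of the 2 Actc1 transcripts, ENSMUST00000090269.6 took all of the TPM in both libraries and the short ENSMUST00000149125.1 was listed at 0.

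Of 8 Actb transcripts, ENSMUST00000100497.6, the full-length coding message of 1920 bases, took 99.52% and 99.54%. The next, ENSMUST00000164765.1, a retained-intron form, took 0.23% in each library. The 2 retained-intron transcripts of Actb together took 0.33% and 0.36%, and the 3 of Actg1 took 1.45% and 1.19%. For both cytoplasmic genes at most 1.45% of the TPM went to these forms. This share covers annotated retained-intron transcripts only, so it sets no limit on unspliced precursors, which total RNA can hold.

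Actg1 was split between ENSMUST00000071555.8, at 65.54% in replicate 1 and 58.07% in replicate 2 (mean 61.8% ± 5.28, SD, n = 2), and ENSMUST00000106215.6, at 32.68% and 40.48% (mean 36.6% ± 5.51). In GENCODE M21 these transcripts have the same coding sequence. The longer has a leader of 124 untranslated bases before the start codon, while the model of the shorter begins at the start codon itself, with 0. Set against each other, the shorter has no 100-base window of its own (0 of 1728), and the longer has 125 of 1853. A read of 100 bases can thus be particular to the longer, but none can be particular to the shorter. Whether the shorter is present as a message was not tested. The posterior standard deviation of the count of the longer was 900 reads in replicate 1 and 769 in replicate 2, against 28.2 and 27.91 for the gene as a whole. The deposited TPM intervals of the longer transcript, 1359 to 1472 in replicate 1 and 1209 to 1299 in replicate 2, did not overlap. Each interval comes from 1 library, so it does not cover differences between embryos or preparations. How often such intervals fail to overlap over all transcripts was not counted.

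Actg2 was split between ENSMUST00000075161.7, at 75.53% and 82.88% (mean 79.2% ± 5.20, SD, n = 2), and ENSMUST00000121731.3, at 23.57% and 16.51% (mean 20.04% ± 4.99). Their coding sequences are also the same. Their annotated starts lie 8275 bases apart (83536265 and 83527990 on chromosome 6). Set against each other, 93 of 1234 windows occur only in the former and 33 of 1174 only in the latter. The level of the former was 846.65 TPM in replicate 1 (interval of the posterior mean 758 to 874) and 840.95 in replicate 2 (761 to 855). That of the latter was 264.25 TPM in replicate 1 (195 to 316) and 167.5 in replicate 2 (120 to 218), with posterior mean intervals that overlap. In both libraries the message from the upstream start was the higher, and its interval lay above that of the other.

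**Figure D4:**
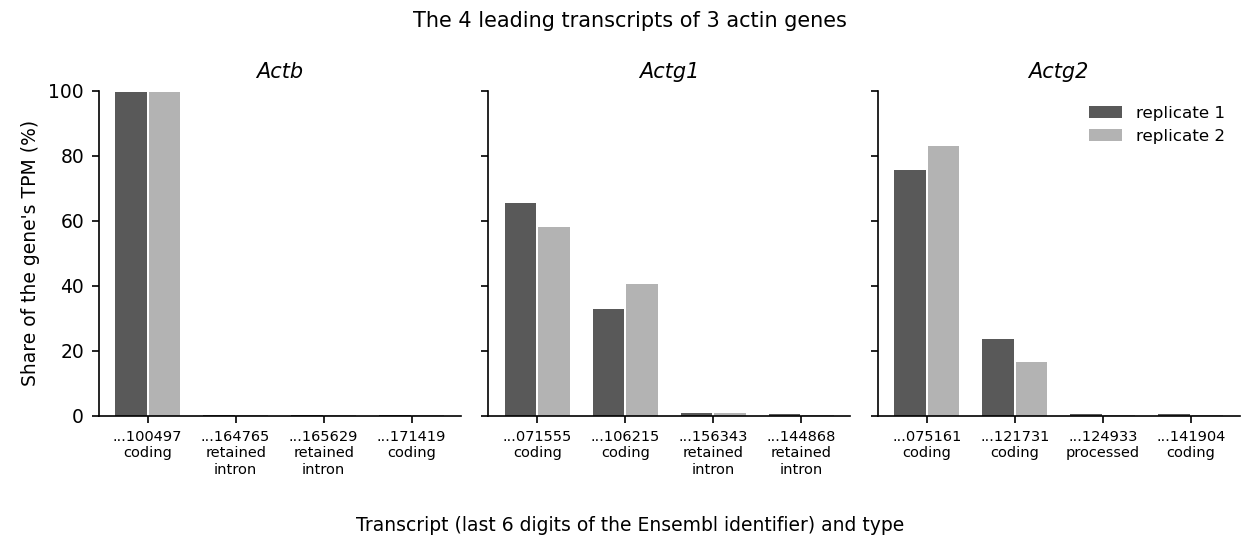
Percent of the gene's TPM in the 4 leading transcripts of Actb, Actg1 and Actg2, with dark bars for replicate 1 and light bars for replicate 2. Actb has 1 tall pair of bars (99.52% and 99.54%), and in Actg1 and Actg2 a second coding transcript takes 16.51% to 40.48%.

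Actin genes are classic targets of SRF, the serum response factor, which binds the CArG box and is driven by the coactivator Myocd in smooth muscle and by Mrtfa and Mrtfb in many cells. Of the 4 genes of this axis, all 4 were detected, where 15137 of all 43346 genes were. Srf stood at 6.1 TPM in replicate 1 and 6.2 in replicate 2. Myocd stood at 41.42 and 44.09 TPM, Mrtfa at 26.85 and 28.43, and Mrtfb at 25.27 and 24.53. The factor itself was thus lower than each of its coactivators.

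CArG boxes were looked for in RefSeq promoters of build GRCm38.p6, from 250 bases before to 50 after the start. The table holds 4 of the 6 actins, Actg1, Acta2, Acta1 and Actc1. The box reads the same on both strands, so 1 strand was searched. An exact box occurred in 3 of these 4, Actg1, Acta1 and Actc1, against 1.63% of 32851 promoters. A box that was exact or had 1 base of its central stretch changed occurred in all 4, against 9.98%. The windows below, 30 bases each, show the exact boxes and the 2 of Acta2, whose boxes are each 1 base off. Capitals mark the box.
Actg1, chr11:120348566-120348595, minus strand: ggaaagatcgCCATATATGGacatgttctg
Acta1, chr8:123894829-123894858, minus strand: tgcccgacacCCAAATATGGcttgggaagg
Actc1, chr2:114052903-114052932, minus strand: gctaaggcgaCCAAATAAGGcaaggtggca
Acta2, chr19:34255438-34255467, minus strand: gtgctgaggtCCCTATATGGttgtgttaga
Acta2, chr19:34255388-34255417, minus strand: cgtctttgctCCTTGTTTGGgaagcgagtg
The boxes begin 90, 73, 47, 84 and 34 bases before the RefSeq start. Both Acta2 windows lie within an Acta2 exon of GENCODE M21, whose model starts further upstream. Actg1, the second highest of the 6 by TPM, and Acta1, the lowest, each hold 1 exact box. A match describes the letters only.

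The markers of smooth muscle were all detected but spread widely in level. All 7 smooth muscle markers were detected, where 15137 of all 43346 genes were. The summed level of the 7 was 912 TPM in replicate 1 and 849 in replicate 2. Tagln, a calponin-like protein of smooth muscle filaments, stood at 332.92 and 324.98 TPM. Cnn1 (calponin) stood at 210.23 and 196.13, and Myh11, the smooth muscle myosin heavy chain, at 202.54 and 175.01. The intermediate filament gene Des was lower, at 38.83 and 32.2 TPM. The lowest, the filament nucleator Lmod1, stood at 10.02 and 9.28 TPM, under the median of 15.7 TPM over all detected genes. On the TMM scale 6 of the 7 were lower in replicate 2 and 1 higher, with a median log2 ratio of -0.05. Over all 17510 genes reaching a mean count of 10, 49.2% were higher in replicate 2. Of the 14 contractile genes listed, all 14 were detected, led by the myosin light chains Myl9 (1317.08 and 1278.53 TPM) and Myl6 (1268.01 and 1293.73 TPM) and by Tpm1, a tropomyosin (980.2 and 911.9 TPM). Acta2 was above every gene of that list in both libraries, and Actg2 above all but Myl9 and Myl6.

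Other cell types can hold Acta2. Over all genes, 15137 of 43346 were detected. All 6 pericyte markers were detected, with a summed level of 183 and 172 TPM, led by Kcnj8 (84.17 and 79.42 TPM). All 6 markers of fibroblasts and myofibroblasts were detected, at 3517 and 3258 TPM in sum, led by Col3a1 (1675.76 and 1550.74 TPM). How the Acta2 message divides among smooth muscle, pericytes and fibroblasts was not tested. All 5 epithelial markers were detected, at 1390 and 1221 TPM in sum, and all 5 were lower in replicate 2 (median log2 ratio -0.13). All 4 mesothelial markers were detected, at 80.5 and 63.4 TPM in sum, and all 4 were lower in replicate 2 (median -0.31). Over all 17510 genes reaching a mean count of 10, 49.2% were higher in replicate 2. Both medians were negative with TMM, DESeq2 size factors, deposited TPM and spike-in sizes. DESeq2 and spike-in sizes shift every ratio alike, by 0.011 and -0.269, so neither could have made these medians positive. The medians of the pericyte and fibroblast lists were both -0.06 with TMM.

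Markers of striated muscle were low, and those of skeletal muscle differed between the libraries in both directions. Of 14 skeletal muscle markers, 6 were detected, where 15137 of all 43346 genes were. The summed level of the 14 was 26.7 TPM in replicate 1 and 30.9 in replicate 2. Myl1, a fast myosin light chain, led with 11.43 and 14.04 TPM. The muscle determination genes Myod1 (0.1 and 0.13 TPM) and Myog (0.13 and 0.12 TPM) were near 0, and the embryonic myosin gene Myh3 stood at 0.02 and 0.15 TPM. Of 10 skeletal markers reaching a mean count of 10, 7 were higher in replicate 2 and 3 lower, with a median log2 ratio of 0.39, while Acta1 was at -0.88. The 3 lower ones were Ckm, the muscle creatine kinase (43.88 and 23.71 counts, -0.90), Myh8, the perinatal myosin (51.8 and 29.93 counts, -0.80), and Tnni2, a fast troponin (38.0 and 33.0 counts, -0.22), so the first 2 differed about as much as Acta1. With spike-in sizes the median was 0.12, with 6 higher and 4 lower. Only 1 of the 14 had a mean count of 100, so these ratios rest on few reads. The median over all 17510 genes reaching a mean count of 10 was 0.00, and 49.2% of them were higher in replicate 2.

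Of 12 heart muscle markers, 6 were detected, where 15137 of all 43346 genes were. The summed level of the 12 was 35.6 TPM in replicate 1 and 26.9 in replicate 2. Tnnt2, cardiac troponin T, led with 10.55 and 7.64 TPM. Nkx2-5, a transcription factor of the heart that also marks the pylorus, stood at 6.16 and 4.74 TPM. The cardiac myosin genes Myh7 (3.66 TPM in both) and Myh6 (0.32 and 0.22 TPM) were low. Of 11 heart markers reaching a mean count of 10, 3 were higher in replicate 2 and 8 lower, with a median log2 ratio of -0.31, and Actc1 was at -0.19. Among all 17510 genes at that count, 49.2% were higher in replicate 2. The mesothelial list, at a median of -0.31, and the epithelial and smooth muscle lists were also mostly lower in replicate 2. The heart median was negative with each of the 4 scalings, from -0.58 to -0.30, though DESeq2 and spike-in sizes could not have turned its sign. Actc1 exceeded each skeletal and heart marker in both libraries. Which cells hold the Actc1 and Acta1 messages was not tested.

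**Figure D5:**
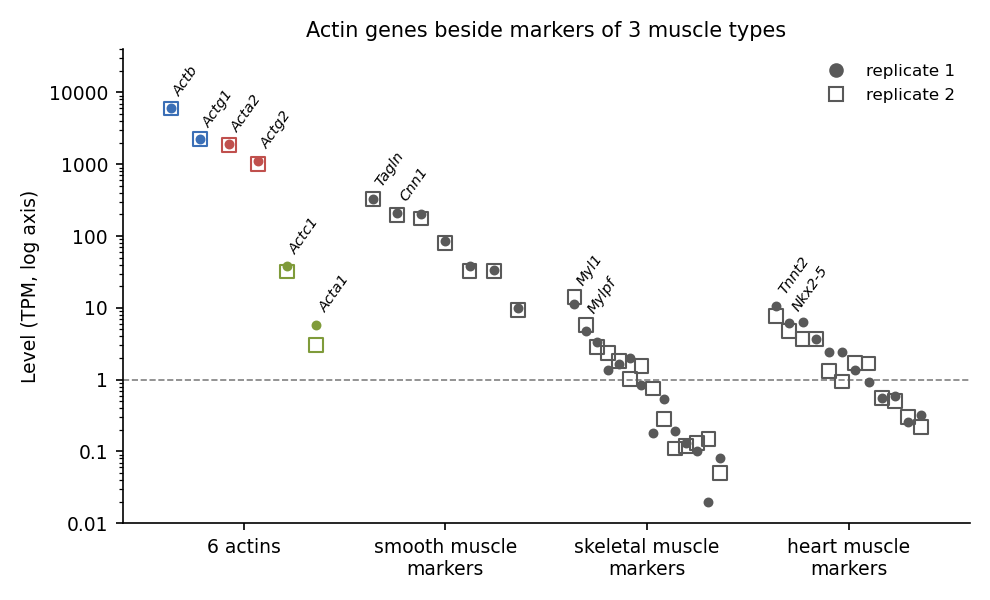
TPM (log axis) of the 6 actins and of the markers of smooth, skeletal and heart muscle, with filled circles for replicate 1, open squares for replicate 2 and a dashed line at TPM 1. The 7 smooth muscle markers all lie above the line, while 6 of 14 skeletal and 6 of 12 heart markers do so in both libraries. Over all genes, 15137 of 43346 were detected. Actc1 lies above every skeletal and heart marker.

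Among the actin-like and actin-related genes, 11 of 18 were detected, where 15137 of all 43346 genes were. The median over all 18 was 7.23 TPM. Actr3, a subunit of the Arp2/3 complex that starts branched filaments, led with 290.97 and 256.8 TPM. Actl6a, an actin-related subunit of chromatin remodelling complexes, stood at 115.64 and 112.88, and Actr1a, of the dynactin complex, at 105.09 and 100.41. Actbl2, a beta-actin-like gene, had 0 counts in replicate 1 and 1 in replicate 2, and a count of 0 allows up to 3. Another 4 of the list had no counts in either. The summed level of the 18 relatives was 743 TPM in replicate 1 and 700.4 in replicate 2, against 11311 and 11145 for the 6 actins.

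Genes that fold, modify and bind actin were broadly expressed. Over all genes, 15137 of 43346 were detected. All 14 genes of the chaperonin and prefoldin, which fold newly made actin, were detected, led by Cct5 (411.01 and 384.47 TPM). All 6 genes that modify actin or protein ends were detected. Setd3, which methylates a histidine of actin, stood at 61.33 and 54.71 TPM, and Naa80, which acetylates the processed start of actin, at 13.38 and 14.98 TPM. All 11 monomer-binding genes were detected, at 10280 and 10004 TPM in sum, led by Tmsb4x (thymosin beta, 4117.83 and 3985.95 TPM) and Cfl1 (cofilin, 1821.85 and 1779.89 TPM). The sum of the 6 actins was 11311 and 11145 TPM. All 22 genes of filament nucleation, capping and bundling were detected, led by the crosslinker Flna (432.68 and 383.93 TPM). In these 4 lists no member reaching a mean count of 100 was over 2-fold apart between the libraries, where 0.298% of all genes tested were.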

How the data were processed

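RNA-seq libraries of total RNA from 2 embryonic stomachs were used, holding RNA over 200 bases. All deposited expected counts summed to 25072242 (replicate 1) and 25599910 (replicate 2), spike-ins included. Per the deposited notes, the authors aligned to mm10 with GENCODE M4. Aligner, quantifier and use of strand: not given in the sources used here. Antisense genes overlap Acta1 and Actc1 (Gm20388 and A530058N18Rik), with 0 exonic bases in common. The deposited expected counts are estimated reads per gene, not normalized. The deposited TPM values include spike-ins (12.14% and 14.18% of TPM). The deposited percent values are each transcript's part of the TPM of its gene. Deposited posterior standard deviations and intervals were copied as given, and the level of the intervals is not stated.

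Symbols came from a table of gene names, which matched 42462 of 43346 genes. Positions, coding sequences and windows come from M21, whose models can differ from M4. Numbered entries (15.47 and 25.0 counts) were left out of library sizes. Ratios used TMM in edgeR 4.0.16 (R 4.3.3), checked on simulated counts. That check used Poisson counts and changes over 2-fold only, so it does not cover ratios as small as those of the actins. Intervals of shares and ratios are exact binomial (Clopper-Pearson) on rounded counts and cover counting error only. DESeq2 1.42.0 gave an alternative scaling. Other tools were Python 3.11.15, numpy 2.4.6, pandas 2.3.3, scipy 1.17.1, Biopython 1.88 and matplotlib 3.10.9. Counts of the libraries differed beyond sampling noise (chi-square 153110, 17509 degrees of freedom), so both were kept. The labels call the libraries biological replicates. The members, lists and naming rule (the 6 actins, the 3 highest of each list and a fixed set of others, of which those a result turns on are named) were chosen with earlier results of these data known. Gm15725, Lrrc58, Gm12715, the pancreatic and sex-linked genes, Ckm, Myh8, Lmod1, Nppa, Mybpc3, Myl2 and Tnnc1 were named after their values were seen. Gm6375, Gm8543 and Gm16385 were named because the data give no values for them. No gene was named for a like pattern, since 2 libraries give 1 ratio per gene. Gm20388 was named because it overlaps Acta1.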

Additional observations from a re-analysis of the deposited data

How the results depend on the processing

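The order of the 6 actins was the same in both libraries by TPM, posterior mean TPM and expected counts. The summed actin level of 11228 TPM was 10871 with posterior mean TPM and 13473 when TPM was rescaled without spike-ins, numbered entries and mitochondrial genes, and 11146 to 11311 with 1 library left out. By expected counts the cytoplasmic share was 76.6%, the smooth muscle share 23.1% and the striated share 0.279%, while posterior mean TPM and coding transcripts alone moved them by less than the spread between libraries. With 1 library left out they ran from 72.6% to 73.8%, 25.9% to 27.0% and 0.315% to 0.390%. The leading Actg1 transcript ran from 58.07% to 65.54% and that of Actg2 from 75.53% to 82.88%. The log2 ratio of Acta1 ran from -1.15 to -0.86 over 4 alternatives. The count of 38 genes over 2-fold apart was 631 at a mean count of 10 or more, 6 at 1000 or more and 37 with DESeq2 size factors. Of 106 values recomputed in all, 76 stayed within the spread or counting interval of the reported value and 30 did not. Those with 1 library left out had to stay within it, since the spread is the SD of the same 2 libraries. They restate the library values and show no stability. Depth limits Acta1 most, at 131 and 72 counts. No paired analysis was possible because there is only 1 group.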
